A study of Mus musculus with 12 samples.

Results

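The 10 genes described here make or load major histocompatibility complex (MHC) class I molecules. They were taken by symbol from the table of expression values of 12 mouse tumors, where all 10 were found among 55401 genes. They comprise the class I heavy chains H2-K1 and H2-D1, the light chain B2m (beta-2-microglobulin), the peptide transporter chains Tap1 and Tap2, the loading chaperone Tapbp (tapasin), the 3 immunoproteasome subunits Psmb8, Psmb9 and Psmb10, and Nlrc5, a transcriptional activator of class I genes. All 10 passed the filter on low values, as did 15504 genes in all. The samples were whole orthotopic breast tumors of 4T1, a mammary carcinoma line that arose in a Balb/c mouse, implanted in that strain. Each host received 1 of 4 proteins: the control isotype (IgG1-Fc), called control IgG here, the recombinant IL10-Fc protein (IL-10-Fc), the CSF1R antibody (αCSF1R), which blocks the receptor of a macrophage growth factor, and the IL10/CSF1R fusion protein (BF10), in which that antibody carries interleukin-10. The interleukin-10 of BF10 is the human protein, per the study's methods. Each group had 3 libraries, named by the replicate numbers of their titles, and no mouse carried a modified allele in the labels, which give neither age nor sex. Dosing began at a tumor volume of 100 mm3. How many doses preceded the harvest is uncertain, since the labels give 6 and the series description fewer. The labels do not tie the 3 libraries of a group to separate mice, so p-values measure the spread between these libraries.

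Class I molecules display short peptides from inside the cell to CD8+ T cells. Peptides cut by the proteasome are pumped into the endoplasmic reticulum by the TAP1 and TAP2 transporter and placed, with the help of tapasin, into a heavy chain paired with beta-2-microglobulin. Interferon gamma raises the transcription of nearly every gene of this route, in part through IRF1 and NLRC5, and it swaps the 3 catalytic proteasome subunits for the immunoproteasome forms. The 4T1 line and its host carry the H2-d haplotype, while the reference genome comes from a mouse strain with H2-b, so reads of the heavy chains carry mismatches to the reference and can be shared among related genes.

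In the GRCm38 annotation, 7 of the 10 genes lie on chromosome 17, within or beside the MHC. Psmb9 (chr17:34181987-34187764, minus strand), Tap1 (chr17:34187553-34197225, plus), Psmb8 (chr17:34197721-34201454, plus) and Tap2 (chr17:34203527-34216321, plus) follow each other within 34335 bases. Tap1 and Psmb9 run head to head and overlap by 212 bases. The library kit marks the strand, but whether the counting used it is not given in the sources used here. H2-K1 (chr17:33996017-34000347, minus) and Tapbp (chr17:33915899-33929292, plus) lie to one side of these genes and H2-D1 (chr17:35262730-35267499, plus) to the other, with the starts of the heavy chain genes 1262383 bases apart. B2m lies on chromosome 2 (chr2:122147686-122153083, plus), Nlrc5 (chr8:94434356-94527272, plus) and Psmb10 (chr8:105935735-105938444, minus) on chromosome 8. The longest coding transcripts of H2-K1 and H2-D1 were identical at 88.8% of 1574 aligned bases. Of the 75-base stretches of the H2-D1 transcript, 6.90% also occurred in another gene, most often in H2-Q1, and of the H2-K1 stretches 1.55% did. For Tapbp the share was 0.992%, and for the other 7 genes no shared stretch was found.

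The 250 bases before the RefSeq start (GRCm38.p6) are shown for the heavy chains, the light chain and Tap1, because these genes are known to be induced together and their windows share short motifs. Each sequence runs 5′ to 3′ on the strand of its gene. The positions are chr17:34000348-34000597 (minus) for H2-K1, chr17:35262844-35263093 (plus) for H2-D1, chr2:122147437-122147686 (plus) for B2m and chr17:34187306-34187555 (plus) for Tap1. Capitals mark a match, on either strand, to an interferon-stimulated response element (GAAA repeated after any 2 bases), a gamma-activated site (TTCNNNGAA), a CCAAT box (ATTGG), the core of a cyclic AMP response element (TGACG), or a kappaB site. The kappaB site was searched in 2 forms, GGG and TTTCC with any 2 bases between, and GGGATT directly followed by CCCC. No match overlapped another. The H2-D1 window lies inside the gene span given above and the Tap1 window inside that of Psmb9.
H2-K1: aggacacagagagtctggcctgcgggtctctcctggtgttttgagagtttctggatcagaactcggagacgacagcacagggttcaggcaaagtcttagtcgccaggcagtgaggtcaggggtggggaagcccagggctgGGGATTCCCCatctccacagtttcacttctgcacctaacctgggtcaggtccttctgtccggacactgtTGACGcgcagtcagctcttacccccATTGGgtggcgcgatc
H2-D1: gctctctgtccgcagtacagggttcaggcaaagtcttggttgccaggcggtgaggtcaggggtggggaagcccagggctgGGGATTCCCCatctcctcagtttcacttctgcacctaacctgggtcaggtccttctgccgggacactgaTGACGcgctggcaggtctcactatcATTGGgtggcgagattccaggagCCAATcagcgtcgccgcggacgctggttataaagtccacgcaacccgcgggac
B2m: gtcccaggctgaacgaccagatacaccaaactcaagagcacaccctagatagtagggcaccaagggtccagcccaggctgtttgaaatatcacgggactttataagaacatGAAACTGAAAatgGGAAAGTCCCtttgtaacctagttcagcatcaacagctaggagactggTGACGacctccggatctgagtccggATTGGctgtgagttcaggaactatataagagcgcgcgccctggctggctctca
Tap1: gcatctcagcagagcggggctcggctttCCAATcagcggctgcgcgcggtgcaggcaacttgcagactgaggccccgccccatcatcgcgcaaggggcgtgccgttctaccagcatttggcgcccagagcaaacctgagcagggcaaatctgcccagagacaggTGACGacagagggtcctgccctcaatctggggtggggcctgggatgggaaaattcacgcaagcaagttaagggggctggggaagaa

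The heavy chain windows were identical at 87.9% of 190 aligned bases, and both held the second form of the kappaB site, found in 0.0852% of 32851 mouse promoter windows of this length. B2m was the only one of the 8 members with a window in the RefSeq table to match the searched string of the interferon-stimulated response element. The match was GAAACTGAAA, and 2.98% of all windows held one. It also held GGAAAGTCCC, the first kappaB form on the opposite strand, which 1.41% of windows held. TGACG occurred in 17.8% of windows and in those of H2-K1, H2-D1, B2m, Tap1 and Psmb9. ATTGG occurred in 33.8% of windows and in those of the same 5 genes and of Tapbp. The Tap1 window is nearly all of the Psmb9 window read from the other strand, since the RefSeq starts of this pair are 226 bases apart. A gamma-activated site (7.02% of windows) was found only in Psmb8. Tap2 and Nlrc5 were not matched. A match is a string of letters, not a bound site. A window without a match may hold a looser form of the element, which was not searched.

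Levels are given as TPM, that is, each deposited FPKM value taken as its share of all FPKM in that library, times 1000000, so that levels of genes can be compared per length. B2m was among the most abundant messages of these tumors, at 3334 to 9655 TPM with a median of 4523, ranking between 8 and 23 of all genes. H2-K1 followed with 2032 to 5971 TPM (median 4178) and H2-D1 with 380.1 to 2793 TPM (median 1856). Psmb8 had a median of 604 TPM, Psmb10 of 413, Tapbp of 328 and Psmb9 of 264. Tap1 (median 161), Tap2 (99.0) and Nlrc5 (87.4) were the lowest. The order of neighbours is uncertain where ranges over the libraries overlap, as they did between B2m and H2-K1, and among Psmb8, Psmb10 and Tapbp. The heavy chain levels are those of the table and may be split among related genes.

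Most members followed a split of the 12 libraries into 2 sets that cut across the treatments. The sum of FPKM was between 782919 and 921581 in 5 libraries (control IgG replicates 4 and 7, IL-10-Fc replicate 7, αCSF1R replicate 8 and BF10 replicate 6), called higher-sum libraries, and between 609695 and 648413 in the 7 others, the lower-sum libraries. Mitochondrial genes took 5.90% to 9.26% of the sum in the first and 3.14% to 3.96% in the second. Relative depth, read from the steps of low values, was 0.917 to 1.07 of the median library. In a model with both group and set, 59.2% of 15504 genes differed between the sets (5.23% higher and 54% lower in higher-sum libraries; limma, adjusted p below 0.05 and at least 1.5-fold). Among the members, whose sets did not overlap for 6 (5 lower, against 48.8% of all genes, and 1 higher, against 6.23%), H2-D1 (log2 difference -2.03, SE 0.17), Tap2 (-1.92, SE 0.17), Tapbp (-1.14, SE 0.13), Nlrc5 (-1.10, SE 0.14) and H2-K1 (-0.90, SE 0.12) were lower in higher-sum libraries past the threshold, and B2m (0.93, SE 0.13) was higher. Psmb8 (-0.49), Psmb9 (-0.46) and Tap1 (-0.40) also differed at a limma adjusted p of 0.00140, 0.00161 and 0.00542 but by less than 1.5-fold. Psmb10 (-0.10, SE 0.091) did not pass. TPM divides by the sum that defines the sets, so a gene of equal FPKM in both is lower in higher-sum libraries by construction. The median difference of all genes between the sets was -0.68, and Psmb8, Psmb9, Tap1 and Psmb10 lay above it. The p-values here are against 0, not against that median. Since control IgG held 2 higher-sum libraries and each treated group 1, the plain group means mix set with treatment. Values are therefore given also from that model, called the set term here, and within each set. Across the 10 members, the difference between the sets had a Spearman's rho of -0.661 with the length of the longest transcript and of -0.224 with its GC content. This is a description over 10 genes that share libraries.

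The transporter chain Tap1 had the clearest separation of a treated group from control. Tap1 was at 101, 110 and 91.0 TPM in control IgG replicates 4, 5 and 7, at 184, 195 and 154 in IL-10-Fc replicates 2, 4 and 7, at 168, 192 and 107 in αCSF1R replicates 4, 6 and 8, and at 175, 150 and 207 in BF10 replicates 3, 6 and 7. All 6 IL-10-Fc and BF10 libraries lay above all 3 control libraries, while αCSF1R replicate 8 lay within the control range. The log2 difference from control, on log2(TPM + 1), stood at 0.80 for BF10 (SE 0.24, 95% interval 0.26 to 1.34), 0.81 for IL-10-Fc (SE 0.24, 0.27 to 1.35) and 0.58 for αCSF1R (SE 0.24, 0.04 to 1.12). None passed the threshold in limma over all genes (adjusted p = 0.788, 0.738 and 0.893). With the library set as a term the differences were 0.67 (SE 0.14), 0.68 (SE 0.14) and 0.45 (SE 0.14), again short of the threshold (adjusted p = 0.993, 0.670 and 0.265). Within the lower-sum libraries Tap1 in BF10 was 0.78 above control and within the higher-sum libraries 0.64. For IL-10-Fc the same values were 0.77 and 0.68, and for αCSF1R 0.69 and 0.15. The medians of all genes in the lower-sum and higher-sum libraries were -0.05 and 0.18 for BF10, -0.07 and 0.33 for IL-10-Fc, and 0.02 and -0.16 for αCSF1R. As measured, the separation of BF10 and IL-10-Fc from control was of like size in both sets. Beside these medians it was smaller in the higher-sum libraries, and each value rests on 1 or 2 libraries a group.

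**Figure D1:**
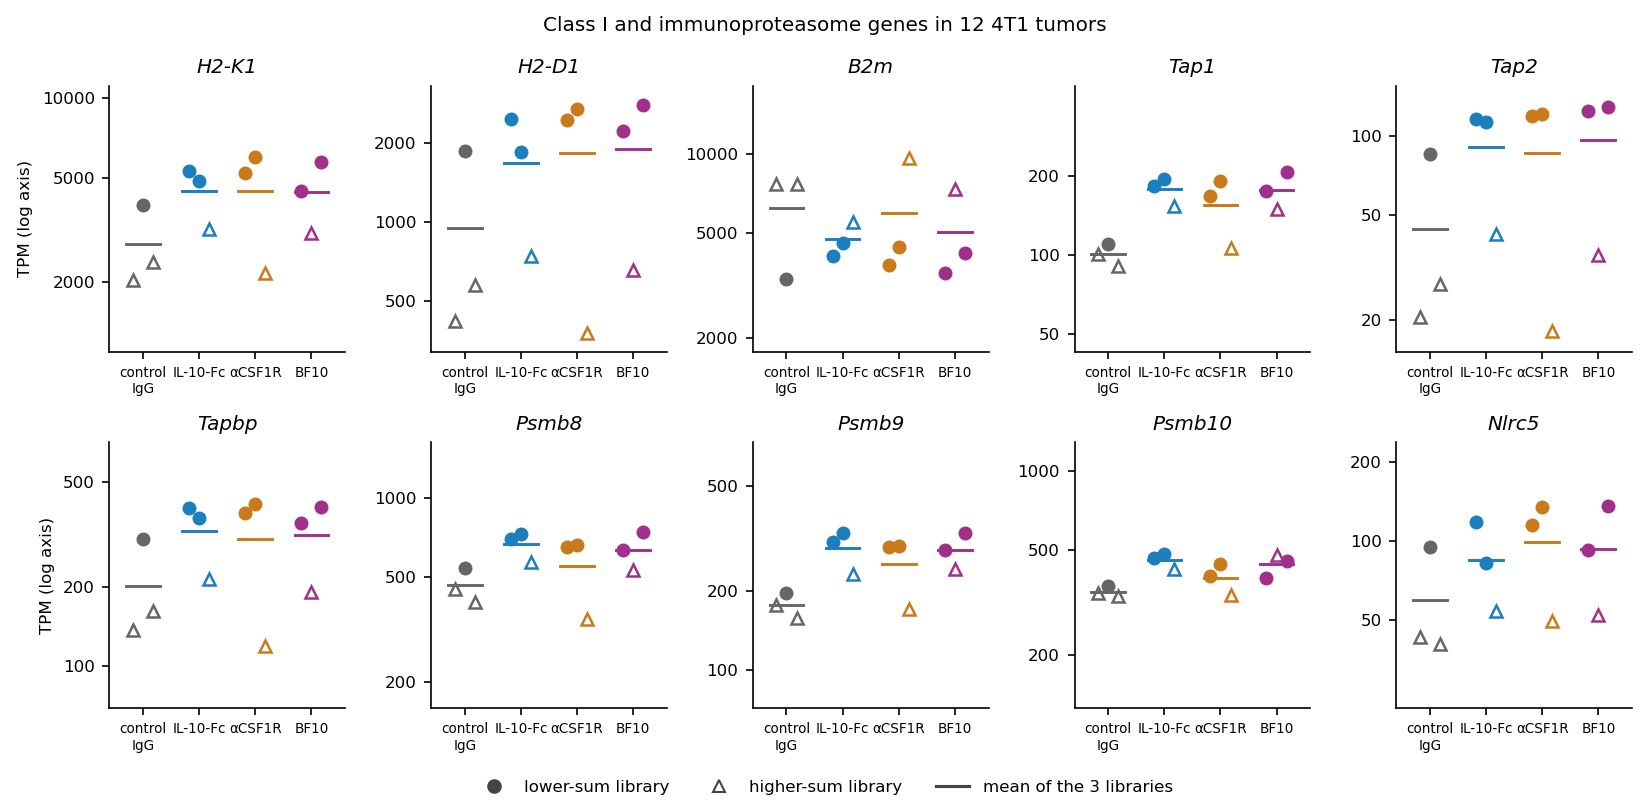
TPM (log axis, each panel spanning the same fold range) of the 10 genes by treatment, with 1 point per library and a bar at the mean of the 3 libraries. Open triangles are higher-sum and filled circles lower-sum libraries. Tap1 and Psmb9 in IL-10-Fc and BF10 lie above all control points, while H2-D1 and Tap2 split by library set within every group.

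The second transporter chain, Tap2, followed the library sets far more than the treatments. Tap2 was at 20.5, 85.2 and 27.4 TPM in control IgG replicates 4, 5 and 7, at 116, 113 and 42.4 in IL-10-Fc replicates 2, 4 and 7, at 118, 121 and 18.1 in αCSF1R replicates 4, 6 and 8, and at 125, 35.2 and 129 in BF10 replicates 3, 6 and 7. The lowest value of every group came from a higher-sum library, and all groups overlapped. Its log2 difference from control was 1.16 (BF10), 1.15 (IL-10-Fc) and 0.80 (αCSF1R), each with an SE of 0.82. The set term gave 0.52, 0.51 and 0.16 (SE 0.23). The difference between the sets was larger for Tap2 than for its partner Tap1 by a wide margin on the same scale, with intervals of -2.29 to -1.55 and -0.63 to -0.17. Tapbp, which bridges the transporter and the waiting heavy chain, was at 304 TPM in the lower-sum control library and at 137 and 163 in the higher-sum control libraries. In the lower-sum libraries of the treated groups it ranged from 351 to 413 TPM and in the higher-sum ones from 120 to 215. Its log2 differences from control were 0.66, 0.73 and 0.49 for BF10, IL-10-Fc and αCSF1R (SE 0.51), and 0.28, 0.35 and 0.11 (SE 0.18) with the set as a term.

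The heavy chain H2-K1 was at 2032, 3929 and 2393 TPM in control IgG replicates 4, 5 and 7, at 5316, 4849 and 3178 in IL-10-Fc replicates 2, 4 and 7, at 5219, 5971 and 2166 in αCSF1R replicates 4, 6 and 8, and at 4427, 3079 and 5731 in BF10 replicates 3, 6 and 7. Each group overlapped control, and within each set the IL-10-Fc and BF10 libraries lay above the control ones. H2-K1 stood above control by 0.68 (BF10), 0.70 (IL-10-Fc) and 0.61 (αCSF1R) on the log2 scale (SE 0.42), and by 0.38, 0.40 and 0.31 (SE 0.16) with the set as a term. H2-D1 was at 419, 1866 and 577 TPM in control IgG replicates 4, 5 and 7, at 2464, 1846 and 741 in IL-10-Fc replicates 2, 4 and 7, at 2448, 2687 and 380.1 in αCSF1R replicates 4, 6 and 8, and at 2228, 656 and 2793 in BF10 replicates 3, 6 and 7. The spread of H2-D1 over the libraries, 7.35-fold from lowest to highest, was the largest of the members, and its differences from control of 1.06, 0.97 and 0.82 (BF10, IL-10-Fc, αCSF1R) had an SE of 0.87. Under the set term they were 0.38, 0.29 and 0.15 (SE 0.24).

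B2m, the invariant light chain that every class I heavy chain needs, ran opposite to the heavy chains between the library sets. B2m was at 7698, 3334 and 7683 TPM in control IgG replicates 4, 5 and 7, at 4101, 4601 and 5531 in IL-10-Fc replicates 2, 4 and 7, at 3768, 4444 and 9655 in αCSF1R replicates 4, 6 and 8, and at 3527, 7358 and 4211 in BF10 replicates 3, 6 and 7. The 5 highest values were those of the 5 higher-sum libraries. Its log2 differences from control were -0.28 (BF10), -0.31 (IL-10-Fc) and -0.10 (αCSF1R), with an SE of 0.44, and with the set as a term 0.03, 0.00 and 0.22 (SE 0.18), so the sign depends on that term. No change of B2m was detectable in these libraries, with 95% intervals under the set term of -0.37 to 0.42 for BF10 and -0.39 to 0.40 for IL-10-Fc.

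Psmb9, the interferon-inducible catalytic subunit encoded beside Tap1, ranked the libraries much as Tap1 did. Psmb9 was at 177, 197 and 158 TPM in control IgG replicates 4, 5 and 7, at 306, 333 and 233 in IL-10-Fc replicates 2, 4 and 7, at 294, 297 and 171 in αCSF1R replicates 4, 6 and 8, and at 286, 243 and 334 in BF10 replicates 3, 6 and 7. Control did not overlap IL-10-Fc or BF10 and overlapped αCSF1R through replicate 8. The log2 difference from control was 0.69 in BF10 (SE 0.25, 95% interval 0.12 to 1.25), 0.70 in IL-10-Fc (SE 0.25, 0.14 to 1.26) and 0.48 in αCSF1R (SE 0.25, -0.09 to 1.04), with limma adjusted p of 0.788, 0.738 and 0.893. With the set as a term it was 0.54, 0.55 and 0.32 (SE 0.14). Psmb8, the subunit that takes the chymotrypsin-like site, was at 453, 544 and 404 TPM in control IgG replicates 4, 5 and 7, at 701, 734 and 573 in IL-10-Fc replicates 2, 4 and 7, at 651, 663 and 349 in αCSF1R replicates 4, 6 and 8, and at 635, 531 and 747 in BF10 replicates 3, 6 and 7. The lowest IL-10-Fc value lay just above the highest control value, and BF10 replicate 6 lay just below it. The log2 difference of Psmb8 from control was 0.45 (BF10), 0.52 (IL-10-Fc) and 0.20 (αCSF1R), with an SE of 0.27, and the last turned to -0.04 under median-of-ratios scaling.

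Psmb10, the only immunoproteasome subunit encoded outside the MHC, varied least among the members, 1.45-fold over all libraries. Psmb10 was at 343, 365 and 334 TPM in control IgG replicates 4, 5 and 7, at 466, 484 and 426 in IL-10-Fc replicates 2, 4 and 7, at 399.8, 442 and 338 in αCSF1R replicates 4, 6 and 8, and at 393, 481 and 457 in BF10 replicates 3, 6 and 7. IL-10-Fc and BF10 lay above control in every library. Its log2 differences from control of 0.35 in BF10 and 0.40 in IL-10-Fc (SE 0.17) turned to -0.03 and -0.04 when libraries were scaled by the median of ratios, and the 0.17 in αCSF1R to -0.06. Nlrc5 was at 43.0, 94.9 and 40.5 TPM in control IgG replicates 4, 5 and 7, at 118, 82.4 and 54.0 in IL-10-Fc replicates 2, 4 and 7, at 114, 134 and 49.4 in αCSF1R replicates 4, 6 and 8, and at 92.4, 52.0 and 135 in BF10 replicates 3, 6 and 7. The groups overlapped throughout. The log2 difference of Nlrc5 from control was 0.65 (BF10), 0.55 (IL-10-Fc) and 0.72 (αCSF1R), with an SE of 0.50, and 0.28, 0.18 and 0.35 (SE 0.19) with the set as a term.

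Taking the 10 genes as a list, none passed the threshold in any comparison with control, with or without the set as a term. For BF10, 0% of all 15504 genes did (0.00645% with the set as a term), and 2 of 10 members had an unadjusted p below 0.05 (1.51% of all genes). For IL-10-Fc, 0.00645% of all genes passed (0.0258% with the term) and 3 members were below 0.05 unadjusted (1.44% of all genes). For αCSF1R, 0.568% of all genes passed (2.01% with the term) and 1 member was below 0.05 unadjusted (3.46% of all genes). The difference from control was positive in 9 of 10 members for each treated group, with B2m the exception. Among all genes it was positive in 77.5%, 79.7% and 73.5% for BF10, IL-10-Fc and αCSF1R. Under median-of-ratios scaling it was positive in 8, 8 and 7 members, because Psmb10, and in αCSF1R also Psmb8, turned negative. Adding the set as a term, all 10 were positive in each comparison. The median of the members was 0.67 for BF10 beside 0.32 for all genes, 0.70 beside 0.35 for IL-10-Fc and 0.54 beside 0.24 for αCSF1R. The set term gave 0.35 beside 0.07, 0.36 beside 0.10 and 0.19 beside 0.01. Median-of-ratios scaling, which moves the median of all genes to 0.02, 0.00 and 0.03, gave 0.29, 0.26 and 0.30 for the members. In αCSF1R the median of the members went to 0.95 without αCSF1R replicate 8 (all genes 0.55) and to 0.33 without αCSF1R replicate 6 (all genes 0.06). Groups did not overlap, with the treated group higher, for 3 members in BF10 (Tap1, Psmb9 and Psmb10; 2.36% of all genes), for 4 in IL-10-Fc (these and Psmb8; 4.75%) and for 0 in αCSF1R (1.61%). These comparisons share the 3 control libraries. One setting changed the calls. With sample quality weights, which gave the least weight to the library alone in its set in each group, 8 members were called higher and B2m lower in every treated group, as were 8967, 9274 and 9898 of all genes in either direction for BF10, IL-10-Fc and αCSF1R. In that fit IL-10-Fc replicate 4 had a weight of 61.7, beside 3.81 for the next highest, αCSF1R replicate 4. In bulk tumor RNA, a different share of cells and a different amount of RNA per cell cannot be told apart.

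**Figure D2:**
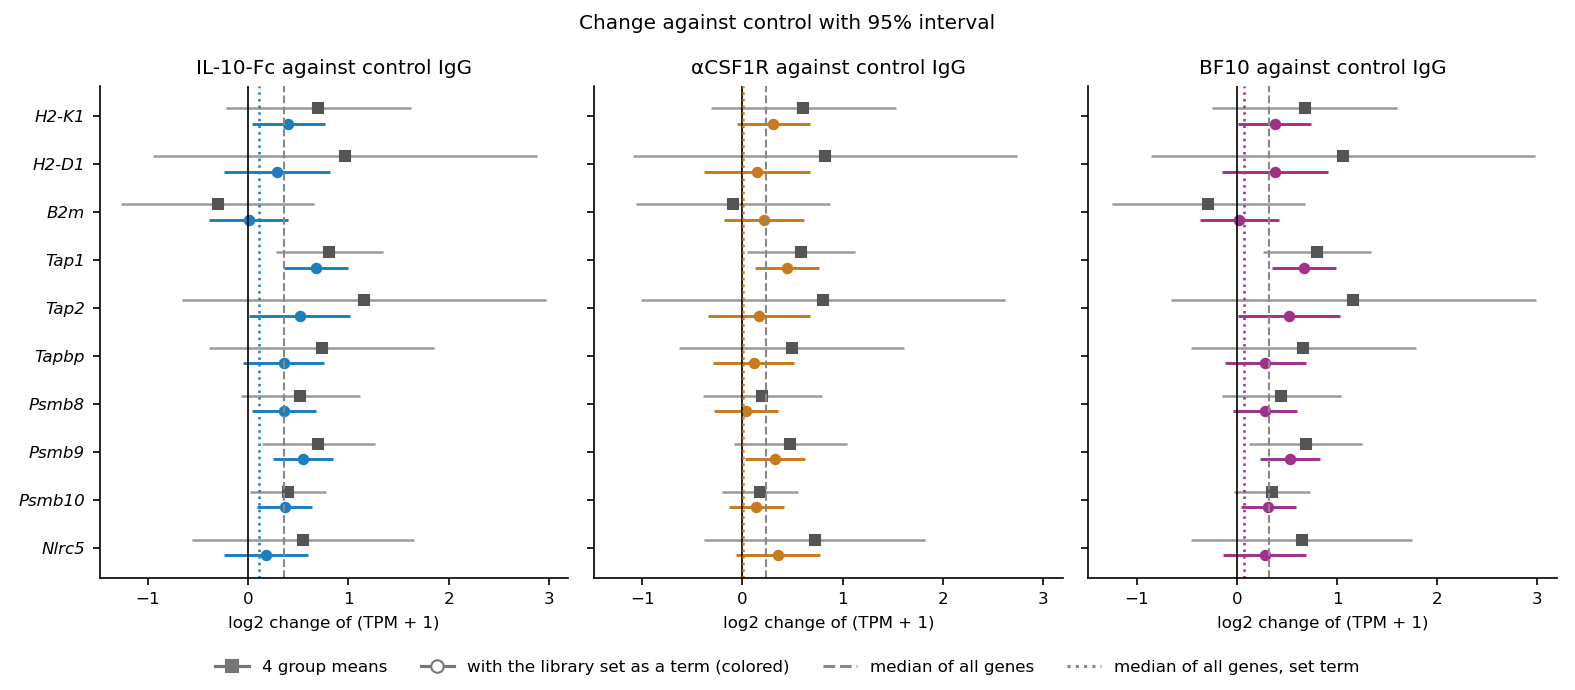
Log2 difference from control IgG on log2(TPM + 1) for the 10 genes, with 95% intervals, in IL-10-Fc, αCSF1R and BF10. Gray squares come from the 4 group means and colored circles from the model with the library set as a term, while dashed and dotted lines mark the median of all genes under each. In IL-10-Fc and BF10, Tap1 and Psmb9 lie furthest to the right of the medians for their interval width. The widest intervals, those of H2-D1 and Tap2, narrow most under the set term in all panels.

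The study set BF10 beside each of its parts, to ask what the joined protein does beyond them. Between BF10 and IL-10-Fc the differences of the 10 members ran from -0.07 to 0.10 with a median of -0.01 (all genes -0.05), and 4 of 10 were positive (35.7% of all genes), or 8 under median-of-ratios scaling. None passed in limma, with or without the set as a term (0% of all genes in both), and 0 had an unadjusted p below 0.05 (0.271% of all genes). For Tap1 the 95% interval of this difference was -0.55 to 0.53 and with the set as a term -0.32 to 0.30, a bound on how far the 2 groups may differ. Between BF10 and αCSF1R the members ran from -0.19 to 0.36 with a median of 0.19 (all genes 0.06), and 8 of 10 were positive (58.3% of all genes), or 7 under median-of-ratios scaling. None passed in limma (0.735% of all genes did, and 2.82% with the set as a term) and 0 were below 0.05 unadjusted (4.26% of all genes). Within the higher-sum libraries, 1 against 1, 9 of 10 members were higher in BF10 replicate 6 than in αCSF1R replicate 8. There the median of all genes was also positive, at 0.35, with Nlrc5 below it at 0.07. Within the lower-sum libraries, 2 against 2, the differences lay between -0.15 and 0.09 (median of all genes -0.09). Single libraries turned the direction in both comparisons. Against αCSF1R the median of the members went to -0.22 with 2 of 10 positive without αCSF1R replicate 8 (all genes -0.26), to 0.0024 with 5 of 10 positive without BF10 replicate 7 (all genes -0.04), and to 0.37 without αCSF1R replicate 6 (all genes 0.25). Against IL-10-Fc it went to -0.21 with 1 of 10 positive without BF10 replicate 7 (all genes -0.13) and to 0.16 with 8 of 10 positive without BF10 replicate 6 (all genes 0.15). With 1 library left out, single members reached from -0.46 to 0.73 against IL-10-Fc and from -0.68 to 0.97 against αCSF1R.

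The groups that carry interleukin-10 (BF10 and IL-10-Fc) were also set against those that do not (αCSF1R and control IgG), 6 libraries against 6. The members' median was 0.42 (all genes 0.22), and 9 of 10 were positive (76.6% of all genes), of which Nlrc5 and Psmb10 turned negative under median-of-ratios scaling. An unadjusted p below 0.05 was found for 3 members (4.43% of all genes), and none passed the threshold in limma, which 0.142% of all genes did and 1.39% with the set as a term. Without αCSF1R replicate 8 the median of the members was 0.20 (all genes 0.04). Tap1 stood at 0.52 (SE 0.17, limma adjusted p = 0.779), and at 0.45 (SE 0.10, adjusted p = 0.0630) with the set as a term. Psmb9 stood at 0.45 (SE 0.18) and Psmb10 at 0.29 (SE 0.12), and no member separated the 6 libraries from the 6 others (0.206% of all genes did, higher). Pooling the lower-sum libraries, 4 against 3, members ran from -0.11 (Nlrc5) to 0.31 (Tap1), with H2-D1 at 0.00014 and all genes at -0.08. Pooling the higher-sum libraries, 2 against 3, they ran from -0.38 (B2m) to 0.81 (Tap2), with Tap1 at 0.61 and all genes at 0.32. With groups weighted equally, the lower-sum median of the members was 0.17 (all genes -0.07). The non-additive contrast asks whether BF10 differs from the sum of the differences of its parts. Its median over the members was -0.58 (all genes -0.28) and with the set as a term -0.19 (all genes -0.06). Leaving out 1 library moved it from -0.95 (without αCSF1R replicate 8, all genes -0.60) to -0.25 (without BF10 replicate 6, all genes -0.10). It was positive in 1 member (25.9% of all genes), B2m, and under median-of-ratios scaling in 3. None passed in limma (0.29% of all genes did, and 1.21% with the set as a term) and 0 were below 0.05 unadjusted (2.43% of all genes). For Tap1 the contrast was -0.59 (SE 0.34) and with the set as a term -0.46 (SE 0.20).

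The swap of proteasome subunits can be read within a library as a ratio, which no scaling of libraries can move. Psmb8 takes the place of Psmb5, Psmb9 that of Psmb6 and Psmb10 that of Psmb7. The TPM ratio of Psmb9 to Psmb6 was 1.12, 0.950 and 1.16 in control IgG replicates 4, 5 and 7, 1.54, 1.76 and 1.278 in IL-10-Fc replicates 2, 4 and 7, 1.56, 1.503 and 1.45 in αCSF1R replicates 4, 6 and 8, and 1.42, 1.51 and 1.66 in BF10 replicates 3, 6 and 7. Every library of each treated group lay above every control library, and so it was within each library set. The group means were 1.07 ± 0.11 in control, 1.52 ± 0.24 in IL-10-Fc, 1.504 ± 0.051 in αCSF1R and 1.53 ± 0.12 in BF10 (SD, n = 3). On the log2 scale the differences from control were 0.51 (BF10), 0.50 (IL-10-Fc) and 0.49 (αCSF1R). Each had a two-sided exact permutation p of 0.1, the smallest that 3 libraries against 3 allow, and an adjusted p of 0.374 over the 18 tests of ratios (exact permutation). The differences share the 3 control libraries. Against each other, BF10 and IL-10-Fc differed by 0.02 and BF10 and αCSF1R by 0.02 (exact permutation p = 1 and 0.8). Psmb6 itself, on the log2(TPM + 1) scale, stood at 0.18 (BF10), 0.20 (IL-10-Fc) and -0.01 (αCSF1R) against control.

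The other ratios followed the library sets. Psmb10 to Psmb7 was 1.75 to 2.35 in the lower-sum libraries and 1.04 to 1.53 in the higher-sum libraries, without overlap. Its mean was 1.31 ± 0.38 in control, 2.03 ± 0.55 in IL-10-Fc, 1.73 ± 0.59 in αCSF1R and 2.00 ± 0.42 in BF10 (SD, n = 3), with exact permutation p of 0.2, 0.3 and 0.2 against control for IL-10-Fc, αCSF1R and BF10. Psmb8 to Psmb5 was 4.94 to 7.62 in lower-sum and 7.40 to 10.2 in higher-sum libraries. Its log2 differences from control were -0.12 (BF10), -0.13 (IL-10-Fc) and -0.06 (αCSF1R) (exact permutation p = 0.8, 0.7 and 0.9). In the lower-sum libraries alone they were 0.38, 0.38 and 0.33, with 1 control library. Interleukin-10-bearing and other groups, 6 libraries against 6, differed in the ratio of Psmb9 to Psmb6 by 0.26 and in that of Psmb10 to Psmb7 by 0.44 (exact permutation p = 0.0844 and 0.104, adjusted p = 0.374 for both).

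**Figure D3:**
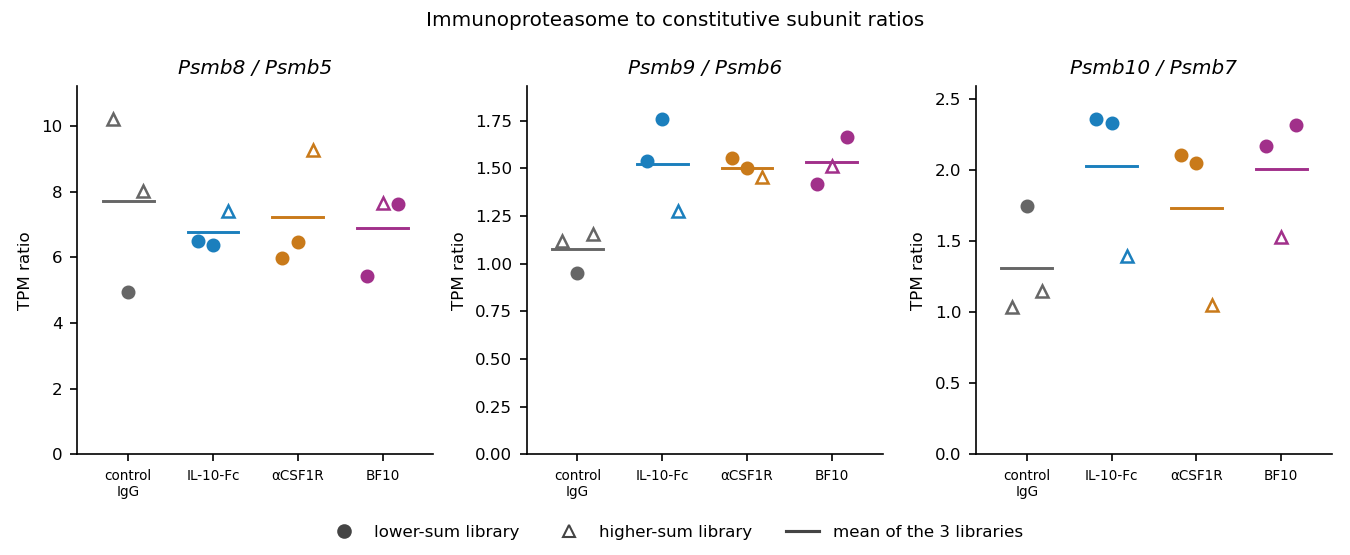
TPM ratio of each immunoproteasome subunit to the constitutive subunit it replaces, by treatment, with 1 point per library and a bar at the mean of the 3 libraries (linear axis from 0). Open triangles are higher-sum and filled circles lower-sum libraries. The Psmb9 to Psmb6 ratio is 0.950 to 1.16 in control and 1.278 to 1.76 in all treated libraries, while Psmb10 to Psmb7 splits by library set.

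Most members varied together, both as measured and once each library was centered on its own set. As measured, Pearson's r over the 45 pairs of members had a median of 0.850 and was above 0.5 in 36, values that include the difference between the sets. Over the 45 pairs of members, Pearson's r across the 12 centered libraries had a median of 0.747 and ran from -0.505 to 0.981, as a description over libraries that share treatments. The highest was that of Tap1 with Psmb9 (0.981), which share a promoter region, followed by Tap2 with Tapbp (0.960). Of the pairs 31 were above 0.5, and all 7 below 0 had B2m as a partner. Pairs of other genes were not measured, so whether the members vary together more than genes in general was not tested. Nlrc5 was the next most loosely tied, with r of 0.344 to 0.714 with the 8 members other than B2m. The mean of the 10 centered members was lowest in control IgG replicate 5 (-0.35), and it was negative in all 3 control libraries and in αCSF1R replicate 8 and BF10 replicate 3. It was highest in IL-10-Fc replicate 7 (0.27) and BF10 replicate 6 (0.25). Those are the higher-sum libraries of their groups, and their FPKM sums (782919 and 829206) were the lowest of the higher-sum set. The median gene of all those tested was also higher in them than in the higher-sum control libraries, by 0.33 and 0.18. How much of the centered means all genes share was not tested.

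**Figure D4:**
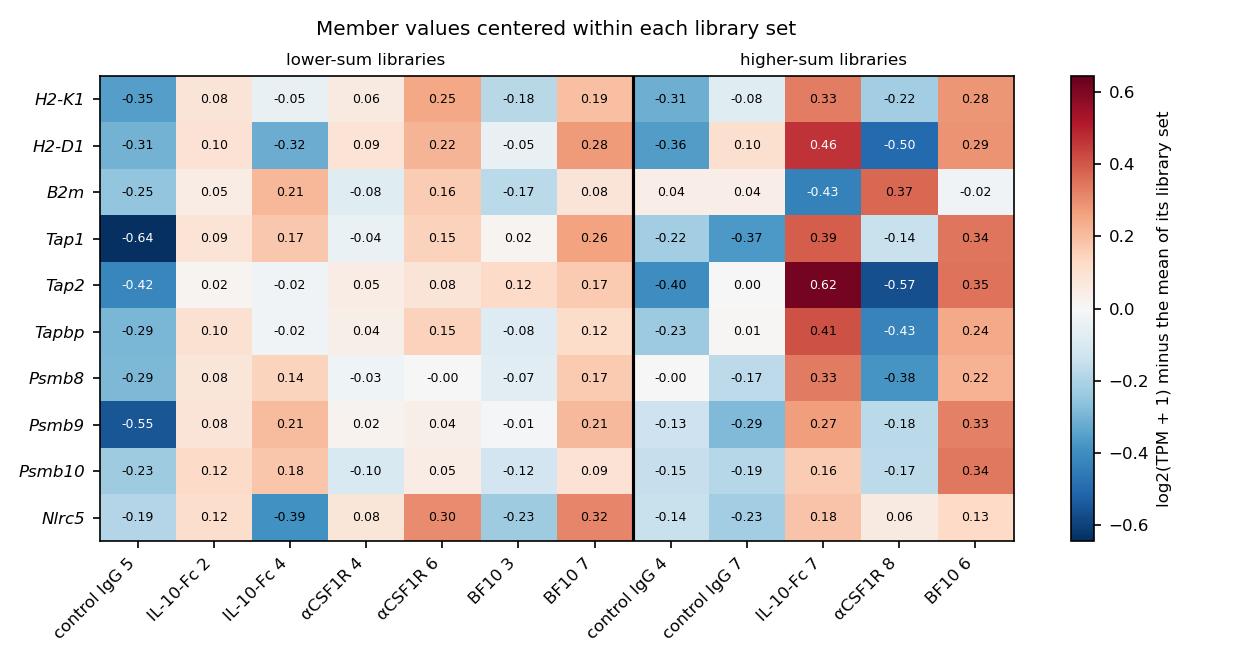
Log2(TPM + 1) of each gene minus the mean of its library set, for 7 lower-sum and 5 higher-sum libraries ordered by treatment, with the value printed in each cell. Control IgG replicate 5 is negative in all 10 genes, with the lowest value for Tap1 (-0.64). IL-10-Fc replicate 7 and BF10 replicate 6, which have the lowest FPKM sums of the higher-sum libraries, are positive in all genes but B2m.

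The genes outside the lists whose centered values were most like the mean of the members over the 12 libraries were Ubald2 (Pearson's r 0.972), Gm10499 (0.951), Gm8810 (0.943), Acsl5 (0.938) and Batf2 (0.929), against a median of 0.318 over the other tested genes. Gm10499 and Gm8810 are annotated as unprocessed pseudogenes on chromosome 17, the first as transcribed. Whether these pseudogenes share reads with class I genes was not tested. Acsl5 is an acyl-CoA synthetase of fatty acid metabolism, and Batf2 is an interferon-inducible transcription factor of the basic leucine zipper kind. All the genes named here were picked for their likeness to the members, so no test is given.

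The rest of the class I route was read from lists of genes, of which none passed the threshold in any of the 7 comparisons, with or without the set term. Of 21 other class I and class I-like chains 19 were tested. Of these, 18 had a positive difference from control in BF10 (median 0.84), 18 in IL-10-Fc (0.78) and 17 in αCSF1R (0.73). The shares and medians of all genes are those given above. Under the set term these medians were 0.39, 0.37 and 0.27. H2-T10 and H2-T22, nonclassical chains that bind γδ T cell receptors, had the smallest p among those with a positive sign. H2-T10 was at 20.4 to 24.1 TPM in control, 29.1 to 36.4 in BF10, 32.9 to 40.5 in IL-10-Fc and 23.98 to 41.4 in αCSF1R. Its difference from control was 0.72 in IL-10-Fc (SE 0.24, limma adjusted p = 0.738) and 0.56 in BF10 (SE 0.24), with groups that did not overlap, and 0.60 in αCSF1R. H2-T22 stood at 0.82 (BF10), 0.84 (IL-10-Fc) and 0.85 (αCSF1R), with an SE of 0.36. Fcgrt, the neonatal Fc receptor, which is built on the class I fold but binds IgG, had a negative sign in all 3 treated groups. Fcgrt was at 62.6 to 131 TPM in control and at 47.7 to 52.0 in αCSF1R, without overlap, a log2 difference of -0.89 (SE 0.31, limma adjusted p = 0.779). The difference of Fcgrt was -0.36 in BF10 and -0.20 in IL-10-Fc, with overlapping groups.

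Of 10 genes of peptide trimming and loading, 9 were positive in BF10 (median 0.37) and 10 in IL-10-Fc (0.36) and αCSF1R (0.30). Of all genes 77.5%, 79.7% and 73.5% were positive, with medians of 0.32, 0.35 and 0.24. Under the set term the medians of the list were 0.16, 0.28 and 0.06, beside 0.07, 0.10 and 0.01 for all genes. Calr (calreticulin), which holds the heavy chain in the loading complex, stood at 0.95, 1.07 and 0.44 with an SE of 0.61, the protease Tpp2 at 0.23, 0.37 and 0.26 (SE 0.21) and the chaperone Hsp90b1 at 0.29, 0.34 and 0.23 (SE 0.24). Other proteasome genes differed in sign. Among the 12 other core particle genes 2 were positive in BF10 and in IL-10-Fc and 1 in αCSF1R, with medians of -0.21, -0.11 and -0.21, and with the set as a term -0.0042, 0.06 and -0.04. Psma6 stood at 0.13, 0.18 and -0.02, Psma7 at -0.13, -0.08 and -0.22 and Psmb2 at 0.13, 0.23 and 0.09. Of the 17 regulatory particle genes 15, 15 and 14 were positive, with medians of 0.42, 0.54 and 0.27. With the set as a term these medians were 0.22, 0.25 and 0.02. In this list Psmd8 stood at 0.33, 0.42 and 0.05, Psmd13 at 0.42, 0.37 and -0.03 and Psmc3 at 0.56, 0.58 and 0.34. In the same order of BF10, IL-10-Fc and αCSF1R, the 4 activators had medians of 0.28, 0.29 and 0.18. Under the set term these were 0.19, 0.20 and 0.08. Psme1 and Psme2, the interferon-inducible pair that caps the core, stood at 0.32, 0.28 and 0.18 (SE 0.22) and at 0.24, 0.30 and 0.19 (SE 0.18), and Psme3, a nuclear relative, at 0.72, 0.82 and 0.40 (SE 0.54). The constitutive Psmb5 stood at 0.55, 0.64 and 0.25 (SE 0.45) and Psmb7 at -0.28, -0.22 and -0.20 (SE 0.30).

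Upstream of these genes, a list of 20 held transcription factors, interferon gamma, its receptor chains and the kinases Jak1 and Jak2. Of these, 18 were positive in each treated group, beside 77.5%, 79.7% and 73.5% of all genes for BF10, IL-10-Fc and αCSF1R. The medians of the list were 0.79, 0.76 and 0.54, beside 0.32, 0.35 and 0.24 for all genes. With the set as a term they were 0.29, 0.29 and 0.17, beside 0.07, 0.10 and 0.01 for all genes. Ifng, the gene of interferon gamma itself, was barely above the filter, at 1.45, 0.873 and 0.721 TPM in control IgG replicates 4, 5 and 7, at 2.18, 2.33 and 1.37 in IL-10-Fc replicates 2, 4 and 7, at 1.48, 1.56 and 1.71 in αCSF1R replicates 4, 6 and 8 and at 3.05, 1.495 and 2.27 in BF10 replicates 3, 6 and 7. BF10 and αCSF1R lay above control without overlap. Against control Ifng stood at 0.69 in BF10 (SE 0.26, limma adjusted p = 0.788), 0.56 in IL-10-Fc and 0.38 in αCSF1R. Ciita, the class II counterpart of Nlrc5, stood at 0.95, 1.16 and 0.62 (SE 0.51) for BF10, IL-10-Fc and αCSF1R. Between the library sets, 16 of 19 tested class I chains and 15 of these 20 upstream genes were lower in higher-sum libraries past the threshold. Beside them stood 54% of all genes. Of the 12 other core particle genes 7 were higher, beside 5.23% of all genes, and 0 lower.

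Tumors hold several cell types that express class I, so the summed TPM of marker lists is given beside the members. The 10 macrophage markers summed to 1801 to 2289 in control, 1493 to 1680 in IL-10-Fc, 1766 to 1854 in BF10 and 83.7 to 259 in αCSF1R, where 7 of 10 passed the threshold as lower than control. No marker of these lists was at 0 in any library. The 7 CD8 T cell markers summed to 29.1 to 50.02 in control, 40.8 to 66.1 in IL-10-Fc, 18.4 to 48.4 in αCSF1R and 23.9 to 66.5 in BF10. The 7 dendritic cell markers summed to 11.6 to 24.3, 19.5 to 32.5, 6.83 to 20.1 and 14.8 to 32.8 in the same order, and the 6 epithelial markers to 1117 to 2459, 1534 to 2567, 752 to 2530 and 1682 to 2483. Neutrophil markers spread most, from 715 to 16420 within BF10. The 5 NK cell markers ranged over all libraries from 7.84 to 21.3 and the 4 B cell markers from 0.749 to 66.4. The 4 endothelial markers ranged from 9.44 to 105 and the 5 fibroblast markers from 499 to 5589. Pearson's r of the centered marker sum with the centered mean of the members over the 12 libraries was highest for epithelial markers (0.649) and lowest for NK cell markers (-0.375). Their part in the values of the members was not tested.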

How the data were processed

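Per the study's methods and the labels, 12 strand-specific libraries of polyadenylated tumor RNA were sequenced and the reads aligned by the authors to mm10 (GRCm38). The submitters' processing notes name STAR 2.7.5a, RSEM 1.3.3 and DESeq2 1.28.0, and which of these wrote the expression table is not given in the sources used here. The authors deposited 1 table with a column of FPKM (fragments scaled by transcript length and library size) for each library. A further 4 tables hold the authors' own comparisons, with fold changes and p-values, and were not used. All columns were matched by name and 0 were left out. Since the table holds no counts, count models were not used.

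FPKM was rescaled to TPM, a gene was kept where 3 or more of the 12 libraries had a TPM of 1 or more (15504 of 34194 above 0), and log2(TPM + 1), which understates changes of low genes, was fitted with 1 mean per group in limma 3.58.1 (eBayes with trend; R 4.3.3) with 8 residual degrees of freedom. A gene was called at a Benjamini-Hochberg adjusted p below 0.05 over all tested genes and a change of at least 1.5-fold, and every adjusted p in the text comes from this fit unless a permutation test is named. Tested on simulated data, the fit returned the sizes that were set, and called few of the smallest changes. Ratios were tested with exact permutation tests in SciPy 1.17.1. Loci, overlaps and shared stretches came from GENCODE on GRCm38, and promoter windows from RefSeq (GRCm38.p6), matched for 8 of 10 members. Named genes were the members, up to 3 genes with the smallest unadjusted p from each other list, the 5 genes most like the mean of the members, and the constitutive subunits for the ratios. One gene that this rule names is not reported here. The members, lists, library sets (boundary at an FPKM sum of 700000) and the set term were chosen with earlier results of these data known. Same-numbered libraries of different groups did not deviate together (r -0.663 to 0.417 over 7 pairs, and -0.799 to 0.781 over 47 pairs with different numbers), so the numbers were not taken to pair libraries.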

Additional observations from a re-analysis of the deposited data

How the results depend on the processing

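Of the alternatives tried, which were FPKM without rescaling, median-of-ratios scaling, a pseudocount of 0.1, no filter, a stricter filter, sample quality weights, the library set as a term, the lower-sum libraries alone, no fold minimum, the replicate number as a replicate block and leaving out each library, only the weights changed how many members were called. With them the count went from 0 to 9 for each treated group against control and in the non-additive contrast, and to 4 for the interleukin-10-bearing groups. With the replicate block 0 members were called in each of the 7 comparisons. Only IL-10-Fc and control share 2 numbers. Against control and in the interleukin-10-bearing and non-additive contrasts, these members changed sign on the log2 scale. Under median-of-ratios scaling Psmb10 was at -0.027 in BF10, -0.042 in IL-10-Fc, -0.065 in αCSF1R, -0.0023 in the interleukin-10-bearing groups and 0.080 in the non-additive contrast, Psmb8 at -0.038 in αCSF1R and 0.029 in the non-additive contrast, and Nlrc5 at -0.049 in the interleukin-10-bearing groups. Without rescaling Psmb10 in αCSF1R was at -0.012. With the set as a term B2m was at 0.027 in BF10, 0.0045 in IL-10-Fc, 0.22 in αCSF1R and -0.19 in the non-additive contrast. In the lower-sum libraries alone B2m was at 0.21, 0.38, 0.30, 0.15 and -0.47 for BF10, IL-10-Fc, αCSF1R, the interleukin-10-bearing groups and the non-additive contrast, and Nlrc5 at -0.047 for the interleukin-10-bearing groups. Signs also changed between treated groups. BF10 minus IL-10-Fc turned without rescaling for H2-K1 (0.0033), Tap1 (0.017) and Psmb9 (0.015), and under median-of-ratios scaling for H2-K1 (0.043), Tap1 (0.056), Psmb9 (0.054) and Psmb10 (0.015). BF10 minus αCSF1R turned for H2-K1 under median-of-ratios scaling (-0.069). The weights, the lower-sum libraries alone and, against IL-10-Fc, the block also turned members there, H2-K1, H2-D1, B2m, Tap1, Tap2 or Tapbp. The cause of these changes was not tested.

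Leaving out 1 library moved B2m from -0.51 (without αCSF1R replicate 8) to 0.17 (without αCSF1R replicate 4) in αCSF1R and from -0.19 (without BF10 replicate 6) to 0.53 (without αCSF1R replicate 8) in the non-additive contrast. In the lower-sum libraries alone, the log2 ratio of Psmb8 to Psmb5 stood at 0.38 (BF10), 0.38 (IL-10-Fc) and 0.33 (αCSF1R) against control, -0.003138 for BF10 against IL-10-Fc, 0.048 against αCSF1R and 0.16 for the interleukin-10-bearing groups. There BF10 minus IL-10-Fc was -0.10 for Psmb9 to Psmb6 and -0.063 for Psmb10 to Psmb7. Leaving out 1 library moved Psmb8 to Psmb5 against control from -0.41 to 0.11 (BF10), -0.42 to 0.10 (IL-10-Fc) and -0.35 to 0.17 (αCSF1R) (lowest without control IgG replicate 5, highest without replicate 4), from -0.070 to 0.18 for BF10 against IL-10-Fc, -0.18 to 0.13 against αCSF1R and -0.21 to 0.0028 for the interleukin-10-bearing groups. It moved Psmb9 to Psmb6 from -0.11 to 0.12 and from -0.038 to 0.078, and Psmb10 to Psmb7 from -0.25 to 0.18 and from -0.074 to 0.44, for BF10 against IL-10-Fc and against αCSF1R. For the ratios, the alternatives run were a pseudocount of 0.1, the lower-sum libraries alone and leaving out each library. Under these the Psmb9 to Psmb6 difference from control was 0.43 to 0.69 (BF10), 0.39 to 0.79 (IL-10-Fc) and 0.40 to 0.69 (αCSF1R). Its sign could not turn when libraries were left out, since every treated library lay above every control library.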
